A study of Mus musculus with 3 samples.

Results

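Interferon-responding macrophages were macrophages of ectopic tissue masses that carried messenger RNA of several genes of the antiviral interferon program at the same time. A cell was counted when at least 4 of 6 interferon-induced genes (Ifit1, Ifit2, Ifit3, Rsad2, Cxcl10 and Cmpk2) had 1 or more unique molecular identifiers (UMIs, tags that each mark 1 captured molecule). The macrophage gate required a UMI of Csf1r, the receptor of the macrophage growth factor CSF1, or of Adgre1, which encodes the macrophage surface protein F4/80. It also required less than 1% of UMIs from the collagen genes Col1a1, Col1a2 and Col3a1, and no UMI of Cd3e or Cd79a, which mark T cells and B cells. Of 12414 macrophages in the gate, 210 met the rule. The other 12204 cells of the gate are called the other macrophages.

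The masses came from CD1 mice, an outbred stock, and were taken on day 5 for single-cell RNA sequencing in a study of activin A in acquired heterotopic ossification, the formation of bone in soft tissue. There were 3 groups with 1 library each and no replicate. The antibody group had masses from Matrigel, a basement membrane gel, loaded with recombinant human BMP2, in mice that received a neutralizing antibody against activin A. The IgG group had the same BMP2 masses with pre-immune IgG as the control, and the Matrigel group had the gel with neither BMP2 nor, as far as the labels say, any IgG. BMP2 and IgG were therefore given together, and their contributions to a difference between the IgG and Matrigel libraries cannot be told apart. How many animals a library pools was not stated. With 1 library per group no test was possible, and every interval below is a 95% interval for counting error only, so that it says nothing of differences among mice or preparations. The intervals of levels and ratios count UMIs and also leave out the spread between cells.

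Interferons are secreted proteins that warn cells of infection or of nucleic acid in the wrong compartment. Type I interferons (alpha and beta) signal through the receptor IFNAR and the kinases JAK1 and TYK2 to a complex that includes STAT2 and IRF9 and binds the interferon-stimulated response element (ISRE). Type II interferon (gamma) signals through its own receptor, JAK1 and JAK2, and acts on the gamma-activated site (GAS). The response makes proteins that block viral RNA and protein synthesis, chemokines that draw lymphocytes, and the machinery of antigen presentation. Macrophages both sense nucleic acid and answer interferon strongly.

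The libraries held 5967, 5958 and 9223 cells of antibody, IgG and Matrigel masses after filtering, of which 52.7%, 54.7% and 65.2% lay in the macrophage gate. All 10 macrophage markers that were looked up (among them Cd68, Lyz2, Fcgr1 and Mertk) were detected in the interferon-responding cells of each library. Their summed level was 10928, 11541 and 14713 CPM (UMIs scaled to a sum of 1e+06 UMIs over the same cells) in antibody, IgG and Matrigel cells, against 15462, 12633 and 15423 CPM in the other macrophages. Csf1r and Adgre1 are among these 10 markers and belong to the gate, which therefore set a part of this detection and of both sums. The 9 T and NK cell markers, of which the gate bars Cd3e, summed to 1, 4 and 0 UMIs. The 6 plasmacytoid dendritic cell markers summed to 0, 1 and 2 UMIs, with Siglech and Ccr9 at 0 in each library. The 8 mesenchymal markers summed to 174, 490 and 515 CPM, against 174, 627 and 547 CPM in the other macrophages. They include Col1a1, Col1a2 and Col3a1, which the gate caps in both sets of cells. The 6 B cell markers summed to 103, 139 and 161 CPM, against 47.7, 70.6 and 149 CPM in the other macrophages, mostly from Ighm, with Cd79a, which the gate bars, at 0 in each library. The 8 conventional dendritic cell markers summed to 139, 110.2 and 52.3 CPM, against 97.7, 171 and 65.2 CPM, and 16.7%, 9.76% and 3.92% of interferon-responding cells had 2 or more of their UMIs, against 5.99%, 9.02% and 3.94% of the others. Without cells that carry dendritic markers, 26, 105 and 44 interferon-responding cells were left, at 0.909%, 3.68% and 0.795% of macrophages. Gene levels were also recomputed without the cells that carry dendritic markers, and no called single-gene or list ratio turned sign. Basophil and mast cell markers had 39 UMIs in antibody cells, where only 1 cell had more than 1 UMI of them, and 0 UMIs in IgG and Matrigel cells. Interferon-responding cells were deeper than the other macrophages, with medians of 6734, 4631 and 4300 UMIs per cell against 4823, 3646 and 3098. Between 7 and 19 cell barcodes were shared by a pair of libraries, and no barcode of an interferon-responding cell was.

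The promoter stretches of 4 rule genes and of 2 further antiviral genes are shown because they hold the core letters of the element bound in the type I response. They are RefSeq sequences of build GRCm38.p6, written 5′ to 3′ on the gene's strand, and capitals mark each match to the ISRE core GAAANNGAAA on either strand. All lie upstream of the annotated start.
Ifit1 (chr19:34640765-34640833, plus strand): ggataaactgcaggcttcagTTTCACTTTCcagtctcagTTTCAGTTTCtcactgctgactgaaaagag
Ifit3 (chr19:34583353-34583436, plus strand): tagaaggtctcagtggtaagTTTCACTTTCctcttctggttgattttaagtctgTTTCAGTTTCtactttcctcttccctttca
Rsad2 (chr12:26456543-26456592, minus strand): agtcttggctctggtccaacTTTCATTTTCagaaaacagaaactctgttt
Cxcl10 (chr5:92349073-92349122, minus strand): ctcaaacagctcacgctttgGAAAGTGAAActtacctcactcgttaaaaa
Isg15 (chr4:156200855-156200916, minus strand): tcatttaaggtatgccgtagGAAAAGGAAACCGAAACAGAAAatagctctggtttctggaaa
Oas3 (chr5:120777705-120777754, minus strand): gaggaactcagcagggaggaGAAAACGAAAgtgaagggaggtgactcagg

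The ISRE core was found in the 250 bases before the start of 4 of the 6 rule genes (Ifit1, Ifit3, Rsad2 and Cxcl10), and in 978 of 32851 promoter windows of the same length, or 2.98%. Of the 15 further genes with the highest ratios over the other macrophages, 12 had a window. The core was in 4 of these 12 (Ifit3b, Isg15, Oas3 and Phf11b), and the rest of them had no match. Ifit1 and Ifit3 each held 2 matches and Isg15 held 3, of which neighbouring ones overlap. The matches of Ifit1 began 104 and 85 bases before the start, and the match of Cxcl10 began 213 bases before it. Cxcl10 also held the NF-kappaB consensus from 104 bases before the start, in 2 overlapping registers. That consensus occurs in 5% of all windows. Ifit2 held the NF-kappaB consensus and the GAS core TTCNNNGAA, which is in 7.02% of all windows, and no ISRE core in this window. A match is a description of the sequence, and no match says only that these letters are absent from this window. Ifit2, Ifit3, Ifit3b and Ifit1 lie within chr19:34550694-34650009. Rsad2 (chr12:26442746-26456452, minus strand) and Cmpk2 (chr12:26469204-26479837, plus strand) point away from each other. Cxcl10 (chr5:92346638-92348889) lies near the related chemokine gene Cxcl9 (chr5:92321347-92328079).

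In the antibody library 36 of 3143 macrophages were interferon-responding (1.15%, 0.804 to 1.58), against 123 of 3261 in the IgG library (3.77%, 3.14 to 4.48) and 51 of 6010 in the Matrigel library (0.849%, 0.633 to 1.11). The antibody share was 0.304 times that of IgG (0.203 to 0.443), and the IgG share was 4.45 times that of Matrigel (3.18 to 6.29). The antibody share was 1.35 times that of Matrigel, with an interval that spans 1 (0.856 to 2.11). By count, IgG masses had the highest share of interferon-responding macrophages, and the antibody and Matrigel masses were not distinguishable at this depth.

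Detection of 4 genes depends on depth, which differed between libraries. When each macrophage was thinned to 1000 UMIs, leaving out 82, 116 and 242 shallower cells, the shares became 0.229% in antibody, 1.11% in IgG and 0.173% in Matrigel masses. Thinned to 2000 UMIs, with 341, 622 and 1222 cells left out, they were 0.607%, 1.97% and 0.460%. IgG stayed above the others under each thinning, at 4.87 and 3.25 times the antibody share and 6.42 and 4.29 times the Matrigel share. Any UMI of the 6 genes at 1000 UMIs was found in 4.97%, 12.2% and 6.07% of macrophages. In the cells with a Cd3e or Cd79a UMI, used as a gauge of free RNA, 0 of 1025, 0 of 141 and 0 of 20 cells met the 4-gene rule, which allows up to 0.293%, 2.13% and 15%. Those lymphocytes had medians of 1802, 2626 and 1354 UMIs, fewer than the macrophages.

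The number of rule genes per cell showed no gap between 0 and 6. Exactly 3 of the 6 genes were found in 31, 74 and 56 macrophages of antibody, IgG and Matrigel masses, and exactly 4 in 15, 47 and 28. These cells just outside and just inside the threshold had median sums of 5, 5 and 4 rule-gene UMIs and of 11, 9 and 7 rule-gene UMIs. All 6 genes were found in 8 of 36 antibody cells, 27 of 123 IgG cells and 8 of 51 Matrigel cells. The rule thus takes the upper end of a graded distribution.

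**Figure D1:**
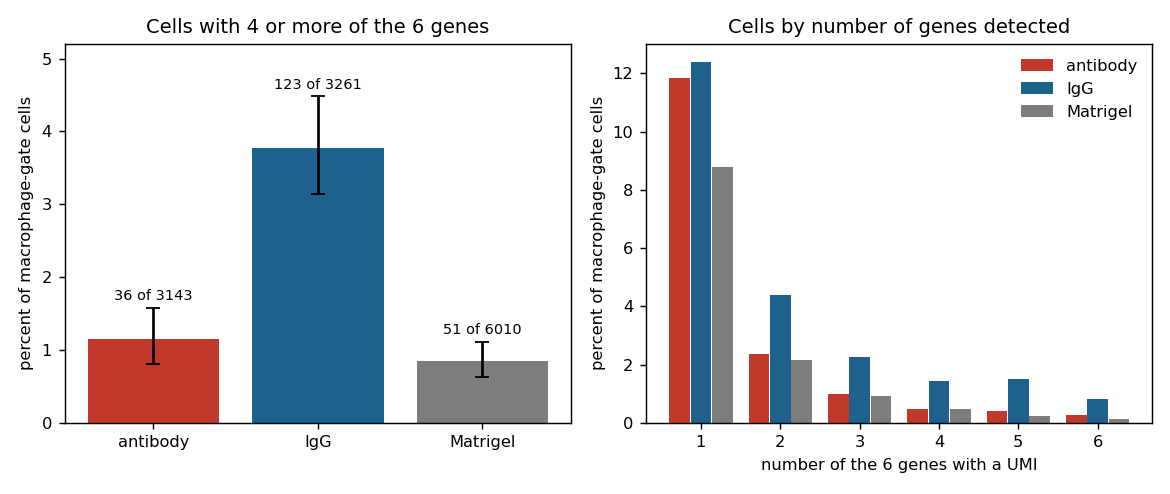
Left, percent of macrophages in the gate with 4 or more of the 6 rule genes in the antibody, IgG and Matrigel libraries, with exact 95% binomial intervals as error bars. Right, percent of macrophages with 1 to 6 of the genes detected. IgG stands at 3.77%, above 1.15% in antibody and 0.849% in Matrigel, and is the highest bar at each number of genes from 1 to 6.

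The levels of the 6 rule genes chose the cells and are given as a description. Ifit1, whose protein binds viral RNA caps, averaged 459, 616 and 837 CPM in interferon-responding cells of antibody, IgG and Matrigel masses, against 9.70, 24.1 and 14.7 CPM in the other macrophages. Ifit2, an RNA-binding relative, had 569, 583 and 547 CPM in interferon-responding cells, against 7.86, 15.5 and 7.25 CPM in the other macrophages. Ifit3, a partner of IFIT1, had 313, 584 and 696 CPM, against 3.90, 16.9 and 14.7 CPM. Ifit1 and Ifit3 have close paralogs, Ifit1bl1 and Ifit3b, and reads could be split between them. Rsad2 encodes viperin, which makes a chain-terminating nucleotide, and had 644, 744 and 1291 CPM, against 10.3, 11.6 and 13.7 CPM. Cmpk2, a nucleotide kinase that supplies viperin, had 242, 334 and 491 CPM, against 5.02, 7.71 and 6.15 CPM. Ifit2 lay at nearly the same level in the interferon-responding cells of each library, whereas Ifit1, Rsad2 and Cmpk2 were highest in Matrigel cells by summed level. There, 5 of 51 cells held 46.6%, 54.2% and 44.3% of the Ifit1, Rsad2 and Cmpk2 UMIs. Median UMIs per cell of Ifit1, Rsad2 and Cmpk2 were 2, 2 and 1 in both IgG and Matrigel cells.

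Cxcl10, the chemokine that attracts T and NK cells through the receptor CXCR3, was instead highest in IgG cells. It had 530, 959.6 and 349.9 CPM in interferon-responding cells of antibody, IgG and Matrigel masses, against 18.9, 38.0 and 3.01 CPM in the other macrophages. It was detected in 15 of 36 antibody cells (41.7%), 71 of 123 IgG cells (57.7%) and 10 of 51 Matrigel cells (19.6%), while each of the other 5 rule genes was found in 65.9% to 94.4% of the interferon-responding cells of each library. In Matrigel, 1 cell held 37.9% of the Cxcl10 UMIs. Cxcl10 was therefore the least evenly carried gene of the rule, and most interferon-responding cells of antibody and Matrigel masses had none of its UMIs.

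The comparison of interferon-responding with other macrophages was made in each library on summed UMIs, for genes with at least 20 UMIs in the higher sum. A gene was counted at a ratio of 1.5 or more either way. Of 5176 genes measured in each of the 3 libraries, 142 were higher in all of them (2.74%) and 253 lower in all of them (4.89%). Since the members were chosen on interferon-induced UMIs of these same cells, the counts and values in this comparison describe the cells and test nothing. The other macrophages have far more UMIs in sum, so a gene could pass the filter more easily by being lower than by being higher. Per library, 4.77%, 4.73% and 3.46% of measured genes were higher and 26%, 24.4% and 25.6% were lower in antibody, IgG and Matrigel masses. With the filter set at the size of the smaller sum, 15%, 8.84% and 12.6% were higher and 9.84%, 10.6% and 8.93% were lower.

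Antiviral effector genes outside the rule formed the largest group. Of 34 genes on that list 27 were measured in each library, and all 27 were higher in interferon-responding cells. Over the 28, 31 and 30 effectors measured in antibody, IgG and Matrigel masses the median log2 ratio was 2.34, 2.09 and 2.71, against -0.05, -0.15 and -0.06 over all measured genes. Mx1, a GTPase that traps viral nucleocapsids, had 260, 278 and 426 CPM in interferon-responding cells of antibody, IgG and Matrigel masses, against 8.70, 15.7 and 14.9 CPM in the other macrophages. Oas3, which makes the 2-5A messenger that activates RNase L, had 242, 230 and 221 CPM, against 22.5, 34.1 and 15.9 CPM. Oasl1, a relative of the OAS enzymes, had 213, 238 and 245 CPM, against 19.4, 23.1 and 19.8 CPM. Oas3 and Oasl1 thus had similar levels in the interferon-responding cells of the 3 libraries. Ifi27l2a, Ifitm3 and Samhd1, the effectors with the most UMIs, differed less, with ratios of 2.88, 2.08 and 2.17 for Ifi27l2a and of 1.64, 2.14 and 1.82 for Ifitm3, which blocks viral entry at endosomes. For Samhd1, an enzyme that depletes nucleotides, the ratios were 1.65, 2.03 and 2.21. Slfn4, of the Schlafen family, had 245, 169 and 72.4 CPM, against 19.8, 17.1 and 8.87 CPM, and 27.8% of its Matrigel UMIs were in 1 cell.

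Genes of the ISG15 system, which also restrains the response, were higher with the effectors. Isg15 encodes a ubiquitin-like modifier and had 1038, 1250 and 1034 CPM in interferon-responding cells of antibody, IgG and Matrigel masses, against 59.1, 107 and 45.3 CPM in the other macrophages. Usp18, which removes ISG15 and dampens the type I receptor, had 221, 270 and 294 CPM, against 17.01, 28.6 and 12.8 CPM. Herc6, the ISG15 ligase of mice, had 153, 283 and 233 CPM, against 24.9, 40.9 and 26.99 CPM. Socs1, an inhibitor of JAK kinases, had ratios of 1.65, 2.21 and 5.25. Socs3 went against its list, with ratios of 0.778, 0.937 and 0.816. Of the 5 genes of this list measured in every library, Isg15, Usp18 and Herc6 were higher in all 3.

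Most sensors of the pathway, some of its transcription factors and none of its receptors were higher in all 3 libraries. Of 7 sensor genes measured in each library, 6 were higher in all 3, among them Ifih1, which encodes the RNA sensor MDA5, at 263, 322.5 and 318 CPM in interferon-responding cells of antibody, IgG and Matrigel masses, against 34.9, 43.2 and 34.8 CPM in the other macrophages. Ddx58, which encodes the RNA sensor RIG-I, had ratios of 6.92, 5.35 and 5.85, and Zbp1, a sensor of Z-form nucleic acid, ratios of 4.29, 3.32 and 7.62. Tmem173, which encodes STING, went the other way in Matrigel masses, with ratios of 1.48, 1.13 and 0.511. Of 7 transcription factors measured in each library 3 were higher in all 3. Irf7, the factor that amplifies type I interferon production, had 622, 644 and 575 CPM, against 88.7, 93.4 and 71.4 CPM. Stat2, a subunit of the complex that binds the ISRE, was also higher in each library, with ratios of 3.47, 3.42 and 4.50. Irf9 and Irf3 stayed within 1.5-fold in each library. None of 7 receptor and kinase genes measured in each library was higher in all 3, and Ifngr1, a chain of the interferon gamma receptor, was lower in all 3, with ratios of 0.636, 0.562 and 0.578.

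**Figure D2:**
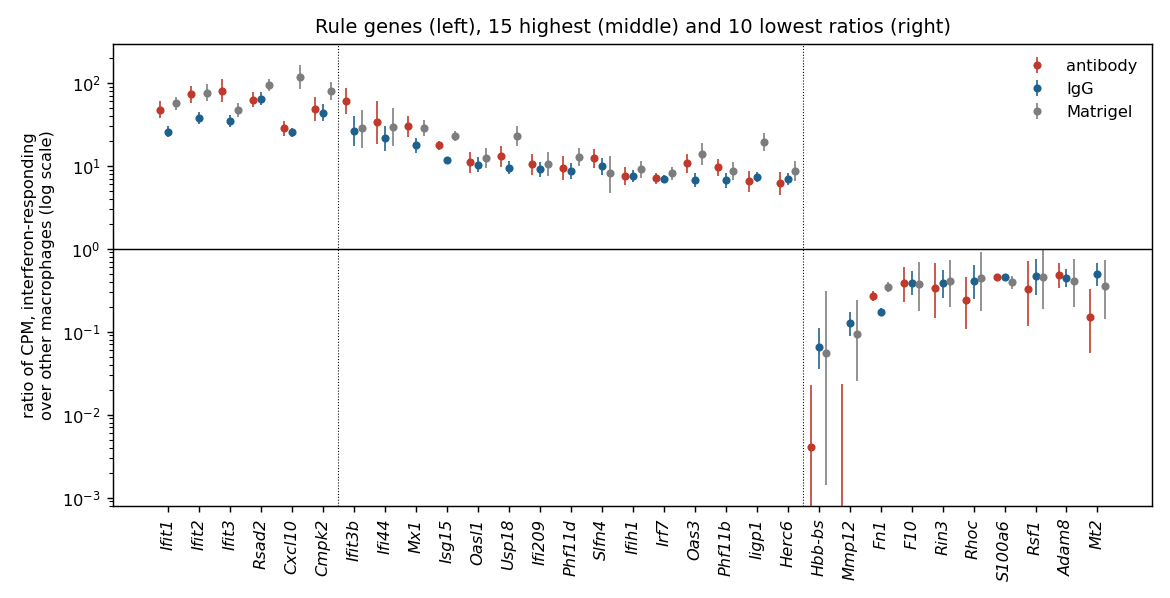
Ratio of CPM in interferon-responding over other macrophages (log axis) in the antibody, IgG and Matrigel libraries, for the 6 rule genes, the 15 genes with the highest ratios and the 10 with the lowest. Points are ratios and bars exact 95% intervals. The 15 genes run from Ifit3b, at ratios of 60.1, 26.3 and 28.6, to Herc6, at 6.15, 6.91 and 8.64, and Mmp12 had no UMI in antibody cells, so only its interval is drawn there.

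Genes of antigen presentation split by class. Of 13 measured genes of MHC class I presentation, 5 were higher in every library (H2-T23, Tap1, Tap2, Psmb9 and Psmb10), and none was lower. Tap1, which pumps peptides into the endoplasmic reticulum, had 242, 316 and 225 CPM in interferon-responding cells of antibody, IgG and Matrigel masses, against 127, 145 and 62.1 CPM in the other macrophages. B2m, the shared light chain of class I molecules, had ratios of 1.19, 1.34 and 1.39. None of the 7 genes of MHC class II presentation was higher in all 3 libraries. Ciita, the master regulator of class II genes, was lower in all 3, with 0, 91.0 and 44.2 CPM in interferon-responding cells, against 79.2, 155 and 129 CPM in the other macrophages. Cd74, the invariant chain, had ratios of 0.834, 1.06 and 0.629.

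Interferon-induced GTPases, which attack the vacuoles of intracellular pathogens, were higher in 7 of 8 genes measured in every library. Iigp1 had 192, 428 and 322 CPM in interferon-responding cells of antibody, IgG and Matrigel masses, against 29.6, 58.8 and 16.6 CPM in the other macrophages. Igtp had 242, 378 and 338 CPM, against 62.7, 88.1 and 29.2 CPM. Gbp2 was the exception, with ratios of 1.105, 2.69 and 5.502. Genes of the Gbp and Tgtp families are near-identical in places, so their reads could be split between copies. The summed level of the 15 listed GTPases was 2095, 3066 and 2047 CPM in interferon-responding cells, against 861, 879 and 305 CPM in the other macrophages, so the ratio was highest in Matrigel (6.71), where the other macrophages had the lowest level.

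A set of 64 interferon-stimulated genes outside the rule stood higher the more rule genes a cell had. In antibody masses their sum was 7191 CPM in cells with none of the 6 genes and 29083 CPM in cells with all 6. In IgG masses it was 6427 and 30994 CPM, and in Matrigel masses 6497 and 28658 CPM. Each further gene went with a higher sum in each library, and cells with 3 and 4 genes had 14458 and 18305 CPM in antibody, 17912 and 19422 CPM in IgG and 17726 and 21355 CPM in Matrigel masses. Their share of a cell's UMIs had a median of 2.38%, 2.55% and 2.31% in interferon-responding cells of antibody, IgG and Matrigel masses, against 0.721%, 0.633% and 0.605% in the other macrophages. Of the interferon-responding cells, 26 of 36, 88 of 123 and 37 of 51 lay above the 95th percentile of the other macrophages of their library. At 5 rule genes the set had 23643, 23691 and 23429 CPM in antibody, IgG and Matrigel masses, so cells with 5 rule genes hardly differed between libraries in this sum.

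**Figure D3:**
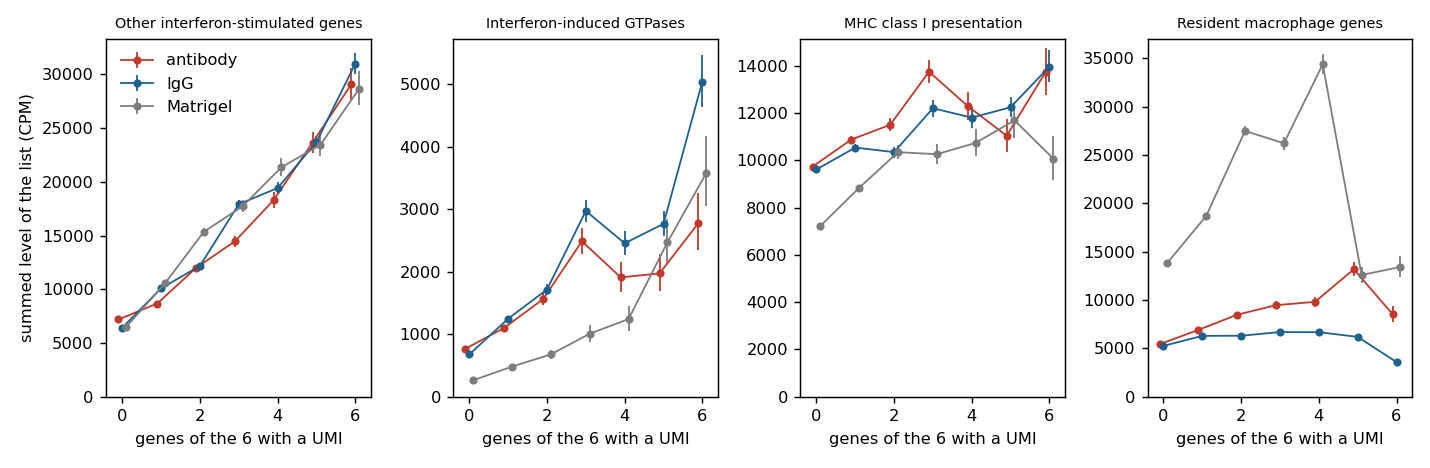
Summed level of 4 gene lists (CPM, vertical axis) in macrophages grouped by how many of the 6 rule genes had a UMI (horizontal axis), for the antibody, IgG and Matrigel libraries, with exact 95% Poisson intervals. The 64 other interferon-stimulated genes reach 29083, 30994 and 28658 CPM at 6 genes, whereas the resident macrophage genes reach 34376 CPM at 4 genes in Matrigel and lie at 13424 CPM at 6 genes.

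Among chemokines, 1 of 10 genes measured in each library, Ccl12, was higher in all 3. Of the 16 listed chemokines 15 were in the data. Their summed level was 24508, 14753 and 9906 CPM in interferon-responding cells of antibody, IgG and Matrigel masses, against 11625, 9898 and 7944 CPM in the other macrophages. This gives ratios of 2.11, 1.49 and 1.25. The median log2 ratio of the measured chemokines was only -0.08, -0.04 and 0.14, against -0.05, -0.15 and -0.06 over all measured genes. The higher sums thus come from some of the genes, and 3 of 36 antibody cells held 23.9% of the list's UMIs there. Ccl12, a monocyte-attracting ligand of CCR2 in mice, had 1913, 1483 and 1488 CPM in interferon-responding cells of antibody, IgG and Matrigel masses, against 493, 429 and 331 CPM in the other macrophages. Thinned to 1000 UMIs, it was found in 58.3%, 47.2% and 52.9% of interferon-responding cells, against 20.3%, 18.9% and 19.3% of the others. Ccl2 and Ccl7, related ligands of CCR2, had ratios of 1.98, 1.99 and 0.966 and of 2.32, 1.73 and 0.971 in antibody, IgG and Matrigel masses. Cxcl9, the interferon gamma-induced neighbour of Cxcl10, had 0, 31.9 and 4.02 CPM in interferon-responding cells of antibody, IgG and Matrigel masses, against 17.9, 38.1 and 0.239 CPM in the other macrophages. The antibody value rests on 0 UMIs, where 3 UMIs would be 10.7 CPM, the Matrigel value on 1 UMI, and 1 cell held 80% of the IgG UMIs. Cxcl9 was thus not higher in the interferon-responding cells of antibody or IgG masses. Of the ligands, Il15, a growth factor of NK and memory T cells, had ratios of 3.16, 2.95 and 2.40, and Tnfsf10, which encodes the death ligand TRAIL, had 35.6, 44.7 and 80.4 CPM, against 1.34, 2.71 and 2.72 CPM.

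None of 10 interferon genes had a UMI in the interferon-responding macrophages of any library. In these sums a count of 0 allows up to 10.7, 4.79 and 12.1 CPM for antibody, IgG and Matrigel cells. Ifng had 45 UMIs (16.4 CPM), 105 UMIs (203 CPM) and 0 UMIs in the cells with a Cd3e or Cd79a UMI, and 111, 63 and 17 UMIs (37.7, 23.01 and 7.79 CPM) in the remaining cells, which had neither these UMIs, the collagen share nor a macrophage receptor. Ifnb1 and the 4 listed Ifna genes had no UMI in any macrophage. Cxcr3, the receptor of CXCL10, had 59.9 CPM in the Cd3e or Cd79a cells of IgG masses and 15.3 CPM in those of antibody masses, against 7.98 and 14.2 CPM (5 and 4 UMIs) in the interferon-responding macrophages.

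Outside the interferon program, some genes of resident tissue macrophages were higher and some of lipid-handling and remodelling macrophages lower. Of 11 resident genes measured in each library, Fcna, Cd209f and Folr2 were higher in all 3. Folr2, a folate receptor, had 875, 359 and 945 CPM in interferon-responding cells of antibody, IgG and Matrigel masses, against 333, 237 and 602 CPM in the other macrophages. Fcna, a lectin that activates complement, had ratios of 4.99, 2.32 and 3.17. Mrc1, the mannose receptor, stayed within 1.5-fold in each library, at ratios of 1.26, 1.02 and 1.04. Of 10 Arg1 and Trem2 list genes none was higher and 4 (Arg1, Spp1, Cd36 and Mmp12) were lower in all 3 libraries, against 4.89% of all measured genes. Mmp12, the macrophage elastase, had 0, 57.5 and 16.1 CPM in interferon-responding cells, against 555, 458 and 172 CPM in the other macrophages. Arg1, the enzyme arginase 1, had 868, 434 and 36.2 CPM, against 1709, 1190 and 55.5 CPM, and 88.9% of its 9 Matrigel UMIs were in 1 cell.

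Of 6 monocyte genes measured in each library, 1 was higher (Plac8) and 2 lower (Fn1 and Nr4a1) in all 3. Plac8 had 1593, 540 and 945 CPM in interferon-responding cells of antibody, IgG and Matrigel masses, against 321, 196 and 192 CPM in the other macrophages. Fn1, which encodes fibronectin, had 743, 425 and 885 CPM, against 2751, 2452 and 2542 CPM. Ccr2, the monocyte chemokine receptor, stayed within 1.5-fold at ratios of 1.07, 0.775 and 0.740. Hbb-bs, a hemoglobin chain that macrophages are not known to make, had the lowest ratio of the named genes in antibody masses apart from Mmp12, with 1, 14 and 1 UMIs in interferon-responding cells, against 871, 342 and 71.9 CPM in the other macrophages. The other 8 genes at the low end were F10, Rin3, Rhoc, S100a6, Rsf1, Adam8, Mt2 and Fn1, with ratios from 0.151 to 0.489.

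Interferon-responding cells that carried Cxcl10 differed from those that did not. This split uses a rule gene and is a description. The resident gene sum was 6855, 3920 and 12951 CPM in cells with a Cxcl10 UMI of antibody, IgG and Matrigel masses, against 13222, 8321 and 26816 CPM in cells without one. Ccl12 had 3410, 1773 and 3976 CPM in cells with Cxcl10, against 918, 1130 and 801 CPM in cells without. Isg15 had 1442, 1398 and 1802 CPM, against 769.8, 1070 and 821 CPM. Retnla, a secreted protein of alternatively activated macrophages, had 454, 459 and 4125 CPM, against 4530, 1336 and 16072 CPM. In each library the cells with Cxcl10 had more Ccl12 and Isg15 and a lower resident gene sum. Their median depth was 6123, 3904 and 4264 UMIs, against 6763, 4954 and 4503 UMIs, so cells with Cxcl10 were the shallower ones. Mrc1, of the resident list, had 3214, 1941 and 2471 CPM with Cxcl10, against 2226, 2754 and 2176 CPM without. It thus followed the sum only in IgG masses, and its Matrigel intervals overlap. Only 10 Matrigel cells had Cxcl10. In Matrigel cells without it, Retnla held 3131 of the 5224 resident gene UMIs.

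The comparison of antibody with IgG masses asks what neutralizing activin A does to BMP2 masses, here within the interferon-responding cells. The members' sums held 281210 UMIs in antibody and 626293 in IgG masses. Of 3927 measured genes, 7.44% were higher and 22% lower in antibody cells. The sums differ in size, and with the filter at the size of the smaller sum 11.2% were higher and 12.3% lower, of 2608 genes. Levels within interferon-responding cells concern the cells that met the rule and not their number. Antibody cells were deeper, and a deeper cell meets the 4-gene rule at a lower level. The part of depth in these ratios was not tested.

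Among interferon-stimulated genes outside the rule, more were lower than higher in antibody cells, as in the other macrophages. The same held over all measured genes of the interferon-responding cells, with 22% lower and 7.44% higher. The rule genes chose the cells, and their levels are a description: Ifit3 and Cxcl10 were past 1.5-fold and lower, at ratios of 0.536 (0.419 to 0.678) and 0.552 (0.458 to 0.662). Ifit2 and Rsad2 had intervals that span 1, at 0.976 (0.806 to 1.18) and 0.865 (0.725 to 1.03). Of 30 measured antiviral effectors 1 was higher and 7 lower, with a median log2 ratio of -0.19, against -0.15 over all measured genes, so the share lower was near that of all genes. Of 12 GTPases 1 was higher and 7 lower (median -0.61), and of 8 genes of the ISG15 list none was higher and 5 lower (median -0.85). In the other macrophages, where 5.19% of measured genes were higher and 10.5% lower, the GTPases had 0 higher and 3 lower of 14 (median -0.28). There the ISG15 list had 0 higher and 5 lower of 8 (median -0.66), the effectors 1 higher and 9 lower of 32 (median -0.47) and the rule genes 0 higher and 5 lower of 6 (median -0.99, against -0.43 in interferon-responding cells). Iigp1 had 192 CPM in antibody cells and 428 CPM in IgG cells, a ratio of 0.449 (0.329 to 0.603). Ifit3b and Gbp2b went against their lists, at ratios of 2.73 and 3.08, and both have near-identical neighbours.

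Resident macrophage genes had the reverse pattern. Of 11 measured, 7 were higher and none lower in antibody over IgG cells, with a median log2 ratio of 1.28, against 3 higher and 1 lower of 12 and a median of 0.14 in the other macrophages. Lyve1, the hyaluronan receptor, had 292 CPM in antibody and 49.5 CPM in IgG cells, a ratio of 5.89 (3.85 to 9.22), against 3.08 in the other macrophages. Cd163, the scavenger receptor for hemoglobin, had 629 and 165 CPM, a ratio of 3.83 (2.99 to 4.93), against 1.51 in the other macrophages. The chemokine genes Ccl6 and Ccl9 had ratios of 5.03 (4.57 to 5.54) and 3.30 (2.89 to 3.76), against 2.05 and 1.79. Klf2, a transcription factor that quiets inflammatory genes, had 363 and 94.2 CPM, and Cxcr4, the receptor of CXCL12, 125 and 38.3 CPM. Fgfr1 had 199 and 57.5 CPM, and Ms4a8a 107 and 24.0 CPM. These ratios were larger in the interferon-responding cells than in the other macrophages for all 8 genes, which were picked for their size in the interferon-responding cells, and the difference was not tested.

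The genes with the lowest ratios in antibody over IgG cells were of another kind. Lipg, endothelial lipase, had 28.5 CPM in antibody cells (8 UMIs, 50% of them in 1 cell) and 148.5 CPM in IgG cells, a ratio of 0.192 (0.0803 to 0.393), and the ratio in the other macrophages was 0.268. Ccnd1, cyclin D1, had 21.3 and 126 CPM, a ratio of 0.169 (0.0603 to 0.385). Serpina3g had 56.9 CPM (16 UMIs in 5 cells) and 225 CPM, and its log2 ratio was 0.10 when 3 of the 6 rule genes were required. The C-type lectin receptors Clec12a and Clec4n had 42.7 and 168 CPM and 99.6 and 297 CPM. Dennd1b, Cd72 and Lilr4b had antibody over IgG ratios of 0.291, 0.345 and 0.361, and in antibody masses 1 cell held 75% of the Cd72 UMIs. Of 9 cell cycle genes measured, 1 was higher and 8 lower (median log2 ratio -2.58), but 3 of 123 IgG cells held 83.4% of the list's 403 UMIs there, so this value rests on 3 cells. At 10 or more UMIs of these genes stood 1 of 36 antibody cells and 3 of 123 IgG cells, which is 2.78% and 2.44%.

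**Figure D4:**
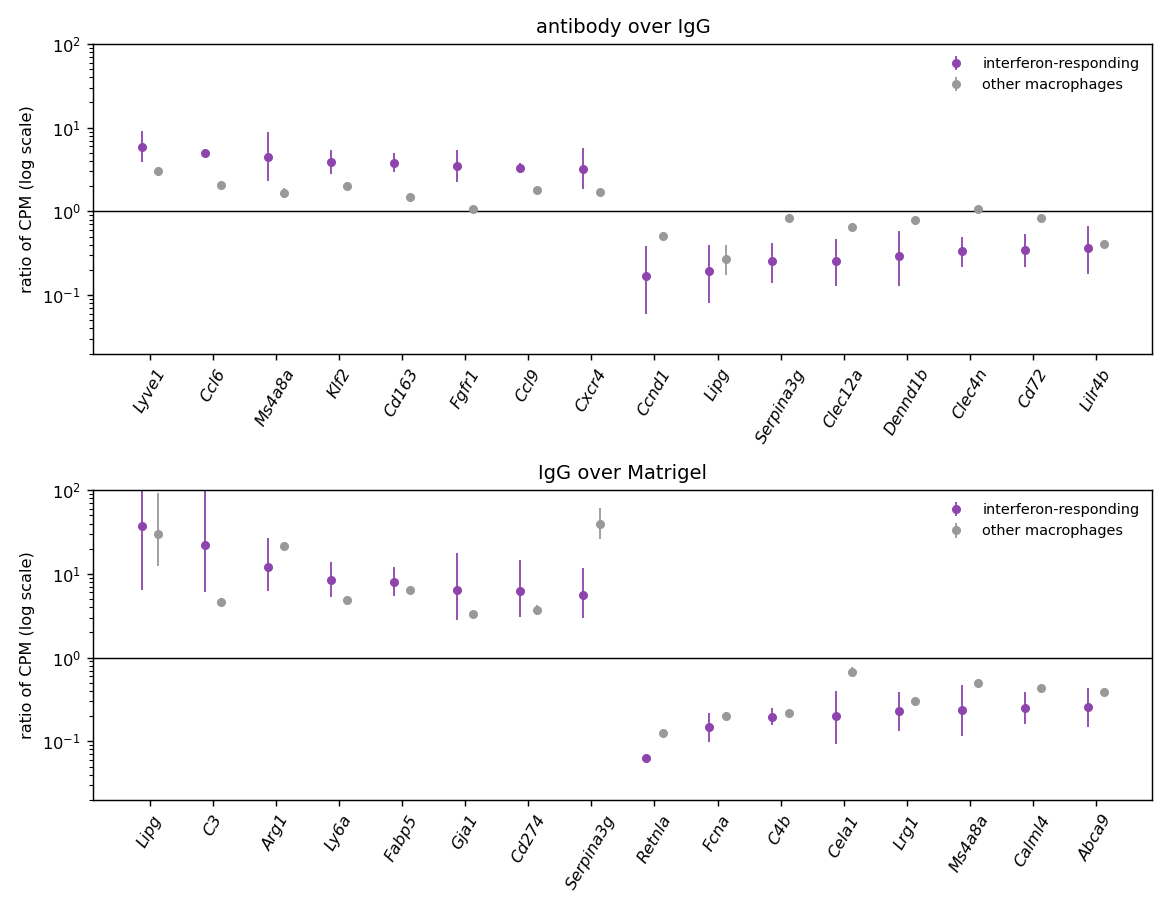
Ratio of CPM (log axis) of the 8 highest and 8 lowest genes in interferon-responding macrophages, for antibody over IgG (top) and IgG over Matrigel (bottom), beside the same ratio in the other macrophages. Bars are exact 95% intervals, and those beyond the axis run off it. Lyve1 stands at 5.89 and Ccnd1 at 0.169 in the upper panel, and Lipg at 36.9 and Retnla at 0.0633 in the lower.

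The comparison of IgG with Matrigel masses sets BMP2 with IgG against the gel alone and shares the IgG library with the comparison above. Of 3751 measured genes, 24.9% were higher and 8.66% lower in IgG cells, and with the filter at the size of the smaller sum 15.7% were higher and 13.8% lower, of 2361 genes. Of the rule genes, Rsad2 had 744 CPM in IgG and 1291 CPM in Matrigel cells, a ratio of 0.576 (0.499 to 0.666), and Ifit1 a ratio of 0.737 (0.621 to 0.876). In Matrigel, 5 of 51 cells held 54.2% of the Rsad2 and 46.6% of the Ifit1 UMIs. Cxcl10 had a ratio of 2.74 (2.19 to 3.48), and in the other macrophages it was 12.7 (9.73 to 16.7). Since the rule used these genes, their levels within the chosen cells are a description.

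GTPases and class I genes were higher in IgG over Matrigel cells. Of 12 GTPases 8 were higher and none lower, with a median log2 ratio of 0.62, against 0.18 over all measured genes. In the other macrophages, where 11.1% of measured genes were higher and 12.3% lower, all 14 measured GTPases were higher, with a median of 1.80. Gbp4 had 160 CPM in IgG and 56.3 CPM in Matrigel cells, against a ratio of 17.7 in the other macrophages. Of 14 class I genes 8 were higher and none lower (median 0.62), with Psme2, a proteasome activator, at a ratio of 3.04, against 10 higher and none lower of 14 (median 0.86) in the other macrophages. Of 31 antiviral effectors 3 were higher and 4 lower (median 0.10), against 11 higher and 1 lower of 32 (median 0.43) in the other macrophages. The effectors were therefore close in level in the interferon-responding cells of IgG and Matrigel masses, while GTPases and class I genes were mostly higher in IgG.

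Several genes of BMP2 masses were higher in the interferon-responding and the other macrophages alike. Arg1 had 434 CPM in IgG and 36.2 CPM in Matrigel cells, a ratio of 12.0 (6.23 to 26.5), against 21.4 in the other macrophages, but the Matrigel value comes mostly from 1 cell. Ly6a, the stem cell antigen Sca-1, had 639 and 76.4 CPM, a ratio of 8.36 (5.28 to 14.0), and Fabp5, a fatty acid carrier, 891 and 113 CPM, a ratio of 7.91 (5.41 to 12.0). Cd274, which encodes the T-cell inhibitor PD-L1, had 200 and 32.2 CPM, a ratio of 6.20 (3.05 to 14.7), against 3.70 in the other macrophages. Lipg and C3 rest on 1 and 2 UMIs in Matrigel cells, and their ratios were 36.9 (6.47 to 1474) and 22.2 (6.01 to 186). Gja1, connexin 43, and Serpina3g had ratios of 6.35 (2.81 to 17.7) and 5.60 (2.96 to 11.9), and 80% of the 10 Serpina3g UMIs in Matrigel were in 1 cell.

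Resident genes were lower in IgG over Matrigel cells, with none higher and 9 lower of 11 (median log2 ratio -1.43), against 1 higher and 10 lower of 12 (median -1.45) in the other macrophages. Retnla had 854 CPM in IgG and 13486 CPM in Matrigel cells, a ratio of 0.0633 (0.0577 to 0.0694), against 0.125 in the other macrophages, and 1 cell held 35.3% of the IgG UMIs. Outside the gate, Retnla had 3678 CPM in the 20 Cd3e or Cd79a cells and 6576 CPM in the remaining cells of Matrigel masses. In IgG masses these values were 98.5 and 281 CPM. The part of free RNA in the Retnla ratio was not tested. Fcna had 60.7 and 410 CPM, a ratio of 0.148 (0.0991 to 0.217). C4b, complement C4, had 172 and 873 CPM, a ratio of 0.198 (0.155 to 0.250), and its reads could be split with the near-identical C4a. Cela1, Lrg1, Ms4a8a, Calml4 and Abca9 had ratios from 0.199 to 0.255. Lyve1, Fcna, Folr2 and Retnla were lowest in the IgG library in interferon-responding and in other macrophages. Not all 12 listed resident genes had this order. Cd163 had 429, 284 and 121 CPM in the other macrophages of antibody, IgG and Matrigel masses, lowest in Matrigel.

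**Figure D5:**
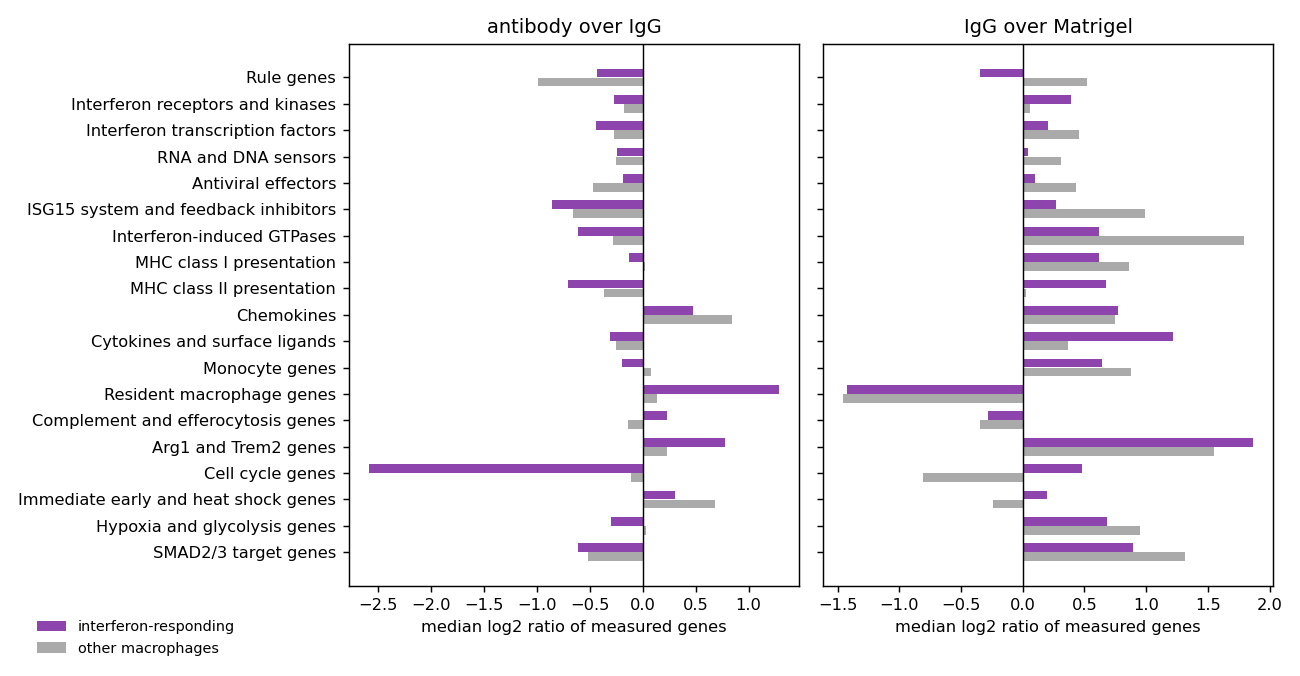
Median log2 ratio of the measured genes of each list for antibody over IgG (left) and IgG over Matrigel (right), in interferon-responding macrophages (purple) and the other macrophages (grey). Lists with fewer than 5 measured genes are left out. Resident macrophage genes stand at 1.28 on the left and -1.43 on the right in interferon-responding cells, and the cell cycle bar on the left, -2.58, rests on 3 IgG cells.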

How the data were processed

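Single-cell RNA sequencing libraries of ectopic masses were made with the 10x 3' kit (v3, per the labels' protocols) and processed with Cell Ranger 3.0.2 against mm10, per the submitters' processing notes. The authors deposited UMI counts per gene and barcode, whole numbers without normalization. The annotation release and the cell-calling settings were not stated. Barcodes with at least 500 UMIs, 300 genes and at most 15% mitochondrial UMIs were kept (279 of 21427 removed). The libraries held 38163880, 46317250 and 44252421 UMIs for antibody, IgG and Matrigel.

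Cells were not treated as replicates. UMIs were summed over cells of a library and given as CPM. Shares have exact Clopper-Pearson intervals, levels exact Poisson intervals and ratios exact conditional binomial intervals (95%). A gene was measured at 20 UMIs in the higher sum and counted at a ratio of 1.5. Median log2 ratios of lists had 1 UMI added to each sum, and 3 counts were the floor for a count of 0. Python 3.11.15, numpy 2.4.6, pandas 2.3.3, scipy 1.17.1 and scanpy 1.11.5 were used, with seed 1. The comparison was run on counts simulated without spread between cells and with changes beyond 1.5-fold. That run cannot speak to such spread or to changes near 1.5-fold. Doublets were not removed: Scrublet's own threshold marked 4, 3 and 2 cells of the antibody, IgG and Matrigel libraries, under 0.5% of the cells, so it did not work here. Removing the highest scores, at 0.8% per 1000 cells, is an alternative.

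Named genes were, for interferon-responding over other macrophages, the 15 highest of each gene's smallest ratio over the libraries and the 10 lowest of its largest, at 50 CPM or more in the higher-level cells of each library, without rule genes. For each contrast between libraries they were the 8 highest and 8 lowest whose higher level reached 100 CPM, without mitochondrial, ribosomal and sex-linked genes, genes at under 10% of their level in cells outside the gate and genes with over 25% of the higher sum in 1 cell. To these came the rule genes, the list genes with the most UMIs and those against their list. Some list genes, such as Tnfsf10, Il15 and Cxcl9, were chosen after their values were seen. The members and lists were chosen with earlier results of these data known. Promoters were RefSeq windows of GRCm38.p6 and gene positions GENCODE M21, both the build mm10.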

Additional observations from a re-analysis of the deposited data

Results flagged for a closer look

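The results below stood out because a value moved in opposite directions in interferon-responding and other macrophages under the same contrast, or because cells outside the macrophage gate met the 4-gene rule. With 1 library per group the difference between directions was not tested.

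In IgG over Matrigel, the cell cycle genes had a median log2 ratio of 0.48 in interferon-responding cells and of -0.81 in the other macrophages, with 4 of 8 and 0 of 14 genes higher and 0 of 8 and 13 of 14 lower. The first value rests on a few cells of each library: 3 IgG cells hold 83.4% of the list's 403 UMIs and 3 Matrigel cells 75.6% of its 127 UMIs. In antibody over IgG, the hypoxia and glycolysis genes had a median of -0.30 in interferon-responding cells, with 1 higher and 2 lower of 10, and of 0.03 in the other macrophages, with 1 higher and 0 lower of 11. For antibody over IgG, Clec4n had a ratio of 0.335 in interferon-responding cells and 1.07 in the others. Fabp5 had 2.08 and 0.843, Gja1 1.51 and 0.637, and C4b 2.35 and 0.636. In antibody masses 1 cell held 32.0% of the Fabp5 UMIs and 33.9% of the Gja1 UMIs of these cells.

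Among cells with 1% or more collagen UMIs, 12 of 650 antibody cells (1.85%, 0.958 to 3.20) had 4 or more of the 6 genes, against 10 of 1556 IgG cells (0.643%) and 25 of 2162 Matrigel cells (1.16%). These collagen cells had medians of 19314, 17124 and 8906 UMIs, more than the macrophages, and their part in the shares was not tested. Among the remaining cells outside the gate, 3 of 1149 antibody cells (0.261%), 6 of 1000 IgG cells (0.600%) and 1 of 1031 Matrigel cells (0.0970%) did.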

How the results depend on the processing

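No paired analysis was possible because each group has 1 library and the labels give no replicate numbers. The share was highest in IgG under all 8 alternatives, at 2.83 to 4.87 times the antibody share and 3.39 to 6.42 times the Matrigel share. No alternative left out a rule gene. Of 3143, 3261 and 6010 macrophages of antibody, IgG and Matrigel masses, 15, 71 and 10 were interferon-responding with a Cxcl10 UMI. Without one were 21, 52 and 41. IgG had the highest share in both parts, but by a smaller factor in the cells without Cxcl10. For antibody, IgG and Matrigel it was 2.13%, 6.04% and 1.78% with 3 of 6 genes required and 0.668%, 2.33% and 0.383% with 5 of 6. Thinned to 1000 UMIs it was 0.229%, 1.11% and 0.173%, and thinned to 2000 UMIs 0.607%, 1.97% and 0.460%. With 3 UMIs of Csf1r and Adgre1 required, IgG was 4.51%. Removing the highest Scrublet scores took out 1, 2 and 1 interferon-responding cells.

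Genes higher in interferon-responding cells of all 3 libraries numbered 76 with a minimum of 50 UMIs, and between 101 and 206 under the other 12 alternatives. For antibody over IgG, higher and lower genes were 292 and 864, became 632 and 1539 with a minimum of 10 UMIs, 103 and 270 with 50 UMIs and 104 and 336 at a fold of 2. With 5 of 6 genes 188 were higher, and with the filter at the size of the smaller sum 322 were lower. For IgG over Matrigel, 933 and 325 became 1524 and 733, 378 and 97, and 416 and 138 under the same 3 settings. With 3 and 5 of 6 genes 545 and 176 were lower, and at the size of the smaller sum 371 were higher. The filter at the size of the smaller sum, and leaving out the 5 deepest interferon-responding cells of each library, were chosen after seeing the data.

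Single-gene ratios between libraries were judged by their counting interval, and list medians and ratios over the other macrophages by nearness to their value. Of 2523 such values 2345 stayed within these bounds, 171 moved further and 7 that stood past 1.5-fold turned sign. For antibody over IgG these were Serpina3g (0.10, log2) with 3 of 6 genes, and Arg1 (-0.17) and the Arg1 and Trem2 list (-0.15) with 5 of 6. For IgG over Matrigel it was Cxcr4 (0.054) with 5 of 6. For interferon-responding over other macrophages, the IgG cell cycle median was -0.012 at 50 UMIs and -1.59 without the 5 deepest cells, and the antibody monocyte gene median 0.078 at the size of the smaller sum. The cause was not tested. The 36 antibody and 51 Matrigel cells limit every level given for them.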

Other observations

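In interferon-responding cells thinned to 1000 UMIs, Ms4a4c was found in 25%, 36.6% and 23.5% of antibody, IgG and Matrigel cells, against 5.46%, 8.90% and 2.27% of the other macrophages. Fcgr1, the high-affinity IgG receptor, was found in 44.4%, 59.4% and 43.1%, against 21.2%, 27.2% and 20.1%. The complement genes C1qa, C1qb and C1qc were 1.80, 1.77 and 1.80 times the other macrophages in antibody masses, 1.38, 1.49 and 1.48 times in IgG masses and 1.28, 1.36 and 1.28 times in Matrigel masses. Hypoxia and glycolysis genes were lower in 8, 5 and 3 of 11 measured genes and higher in none, where 26%, 24.4% and 25.6% of all measured genes were lower, so the Matrigel count is near that share. They had summed levels of 5199, 5973 and 3588 CPM in interferon-responding cells, against 8972, 8095 and 4497 CPM in the other macrophages.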
